A study of Mus musculus with 6 samples.

Results

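The 7 genes Srebf2, Insig1, Hmgcs1, Idi1, Fdft1, Sqle and Lss of cholesterol synthesis and its control were followed in naïve mouse CD4 T cells that lacked, or kept, the mRNA cap methyltransferase gene Rnmt. Srebf2 and Insig1 belong to the control circuit and the other 5 encode enzymes. They were chosen by symbol as a pathway set that had been named for synthesis and uptake, and none of them encodes an uptake receptor. All 7 were found among the 46983 genes counted, and all 7 were among the 12336 genes expressed highly enough to be tested.

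The cells came from lymph nodes of male mice and were sorted alive as T cell receptor β+, CD4+, CD62L+ and CD44-. The 3 control libraries came from mice with the genotype Rnmt fl/fl CD4cre -, and 3 Rnmt cKO libraries from Rnmt fl/fl CD4cre + mice, so that both groups carried the floxed alleles. In this model the loxP sites flank exon 3 of Rnmt, the Cre transgene is driven by Cd4 regulatory sequence, and deletion begins at the double-positive stage in the thymus on a C57B6/J background, so CD8 T cells of these mice also lack the gene. Total RNA was depleted of ribosomal RNA and sequenced. The replicates of a group are described as different mice, whose ages were not given in the sources used here.

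Cholesterol is built from acetyl-CoA through the mevalonate pathway, which first makes isoprenoid units, joins them into squalene, and then closes squalene into the sterol rings. The enzymes are controlled together by SREBP2, the product of Srebf2, a transcription factor held in the endoplasmic reticulum membrane. When sterols are low, the escort protein SCAP carries SREBP2 to the Golgi, where site-1 and site-2 proteases release the part that enters the nucleus; when sterols are high, INSIG1 retains SCAP and the factor stays inactive. Resting T cells need little new membrane, and the pathway is known to be switched on when T cells are activated and grow.

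The libraries held 8873413 to 11277764 sense-strand reads in genes. Rnmt itself was measured at 51.5, 58.7 and 57.9 CPM in controls 1 to 3 and at 42.0, 37.5 and 26.6 CPM in Rnmt cKO 1 to 3. CPM here means counts-per-million values, scaled between libraries by the trimmed mean of M-values (TMM). For Rnmt every cKO library was below every control. The residual signal comes from a count over the whole gene, which does not separate transcripts with and without exon 3. Reads aligned uniquely but to no gene made up 31.8% to 47.9% of a library, lowest in Rnmt cKO 3 and highest in Rnmt cKO 1. The sorted cells expressed Cd4 at 657 to 688 CPM in the controls and 823 to 909 CPM in the cKO, and Cd3e at 137 to 163 CPM over all 6 libraries. In the same list of naïve T cell genes Cd3g fell, from 435 to 533 CPM in the controls to 308 to 414 CPM in the cKO (log2 fold change -0.44, adjusted p = 0.0132, edgeR exact test), and so did Il7r, from 336 to 386 CPM to 175 to 203 CPM (-0.96, adjusted p = 2.44e-17).

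Across the 7 genes, 1 was lower in Rnmt cKO cells, none was higher, and 6 did not pass an adjusted p of 0.05 in edgeR's exact test. Among all tested genes 6.84% were called lower and 8% were called higher, and with 1 called gene of 7 nothing is read about the group from this count. Fitted log2 fold changes were below 0 for 5 of the 7 and above 0 for 2, with a median of -0.24 against 0.01 over all tested genes. That median was -0.12 without control 1, -0.14 without Rnmt cKO 2, -0.41 without Rnmt cKO 3 and -0.11 with scaling by total count alone. The gene that fell was Srebf2, the regulator. CPM is a share of each library, and in a bulk sample fewer cells with a transcript and less of it per cell cannot be told apart.

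Levels were first compared between the genes per length, as RPKM (CPM divided by kilobases of merged exon). In control cells Srebf2 was the most abundant of the 7 at 26.6 ± 3.00 RPKM (SD, n = 3), ahead of Hmgcs1 at 13.1 ± 1.43 and Insig1 at 10.1 ± 2.92 RPKM. Lss followed at 5.12 ± 0.366, Sqle at 4.64 ± 1.79 and Fdft1 at 4.50 ± 0.951 RPKM, and Idi1 was lowest at 1.41 ± 0.245 RPKM. In this order the control libraries of Hmgcs1 and Insig1 overlapped, as did those of Lss and Sqle and those of Sqle and Fdft1. The other neighbours were separated in all control libraries. In the cKO libraries Sqle, at 2.80 ± 0.661 RPKM (range 2.20 to 3.51), lay below Fdft1, at 4.56 ± 0.650 RPKM (range 3.90 to 5.20), with no overlap. In the controls Sqle was above Fdft1 in 1 of 3 libraries.

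**Figure D1:**
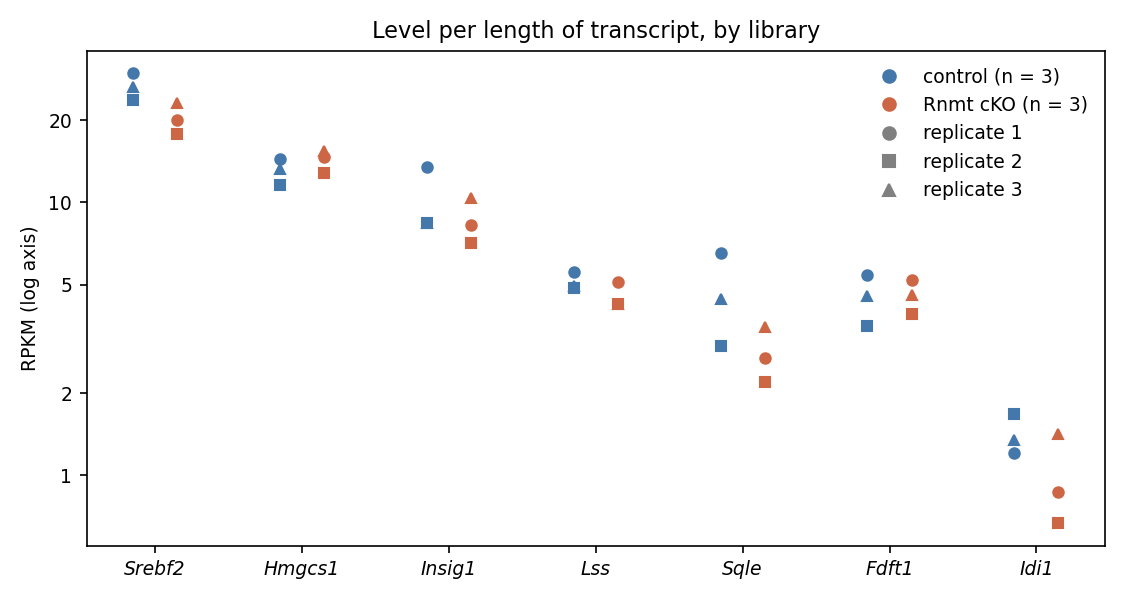
RPKM of the 7 genes in each library on a log axis, ordered by control mean, with controls in blue, Rnmt cKO in orange and marker shapes for replicates 1 to 3. Srebf2 lay highest, from 17.8 to 29.7 RPKM, and Idi1 lowest, from 0.669 to 1.68 RPKM.

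Srebf2 (ENSMUSG00000022463, chr15:82147181-82205379, plus strand, GRCm38) encodes the transcription factor that drives the whole pathway. It was counted at 151, 120 and 134 CPM in controls 1 to 3 and at 102, 90.5 and 117 CPM in Rnmt cKO 1 to 3. The 3 cKO libraries all lay below the 3 controls, with Rnmt cKO 3 closest to them, a separation in this direction that 14.9% of all tested genes showed. The group means were 135 ± 15.2 and 103 ± 13.3 CPM (SD, n = 3), a log2 fold change of -0.39 with an SE of 0.14 and an adjusted p of 0.0139 by edgeR's exact test. This is a fall to 0.764 of the control level. The call was past the threshold in 12 of 18 other settings, with adjusted p from 2.02e-05 to 0.142 and log2 fold changes from -0.51 to -0.27, all below 0. It was lost without control 1 (-0.30, adjusted p = 0.142), without control 3 (-0.39, adjusted p = 0.0594), without Rnmt cKO 1 (-0.38, adjusted p = 0.0711) and without Rnmt cKO 2 (-0.31, adjusted p = 0.137), each refit with edgeR. It was also lost when libraries were scaled by total count alone, where the log2 fold change of Srebf2 was -0.27 (adjusted p = 0.0709) while the median of all tested genes rose to 0.14. With the replicate number as a block in edgeR's quasi-likelihood test the call was lost too (-0.39, adjusted p = 0.0682).

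**Figure D2:**
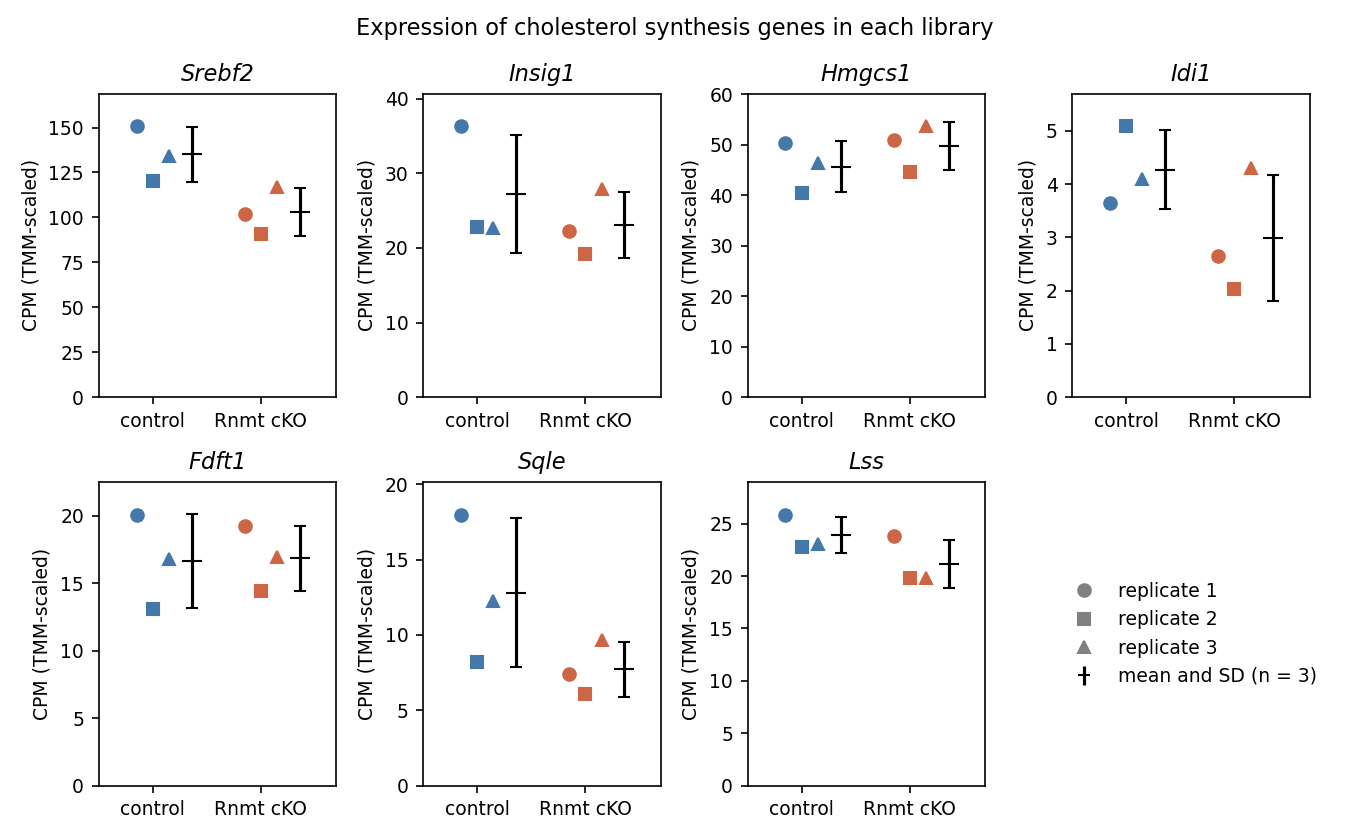
TMM-scaled CPM of each gene in the 3 control (blue) and 3 Rnmt cKO (orange) libraries, with marker shapes for replicates and black bars for the mean and SD of 3 libraries on axes that start at 0. Only for Srebf2 did all cKO libraries lie below all controls.

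SREBP2 binds sterol regulatory elements, commonly with the nuclear factors NF-Y and Sp1 beside it, and Srebf2 is known to be one of its own targets. The windows of 250 bases before to 50 after the RefSeq start of Srebf2, which was called lower, and Hmgcs1, which was not, are shown because both hold the sterol element core. Capitals mark TCACNCCA (the core), CCAAT (the NF-Y box) and GGGCGG (the Sp1 box) on either strand, so that ATTGG and CCGCCC are the last 2 motifs on the minus strand.
Srebf2, chr15:82147019-82147318 (GRCm38.p6, plus strand): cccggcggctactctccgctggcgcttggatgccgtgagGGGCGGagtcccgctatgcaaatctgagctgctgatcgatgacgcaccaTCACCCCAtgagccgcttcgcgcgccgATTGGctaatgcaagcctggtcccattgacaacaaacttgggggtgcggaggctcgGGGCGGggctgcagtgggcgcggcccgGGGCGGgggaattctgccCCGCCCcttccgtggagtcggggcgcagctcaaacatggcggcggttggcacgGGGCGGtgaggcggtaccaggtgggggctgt
Hmgcs1, chr13:119690101-119690400 (GRCm38.p6, plus strand): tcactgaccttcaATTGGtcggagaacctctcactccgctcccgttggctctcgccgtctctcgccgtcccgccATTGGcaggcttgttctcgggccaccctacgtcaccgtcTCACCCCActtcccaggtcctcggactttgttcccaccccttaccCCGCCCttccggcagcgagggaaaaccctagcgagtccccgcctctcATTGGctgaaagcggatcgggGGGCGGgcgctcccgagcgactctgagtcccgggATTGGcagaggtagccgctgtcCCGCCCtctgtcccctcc
The core began at base -162 in Srebf2 and at base -137 in Hmgcs1, counted from the start site. In Hmgcs1 it went on to the longer form TCACNCCAC. Of 32851 mouse promoter windows of this length, 4.36% held TCACNCCA and 1.24% held TCACNCCAC. The shorter core was chosen after the sequences had been read. Windows were matched for 5 of the 7 genes, and those of Insig1, Idi1 and Lss held neither form. CCAAT occurred in all 5 windows and in 37.4% of all windows, and GGGCGG occurred in all 5 and in 35.7% of all. The RefSeq starts lay 28 bases upstream (Hmgcs1) to 105 bases downstream (Idi1) of the GENCODE gene starts, 88 bases downstream for Srebf2. A match of letters describes the window only and was not tested as a binding site.

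The Srebf2 gene also carries the microRNA gene Mir33 in an intron, on the same strand. Its main product, miR-33, is known to lower the cholesterol exporter ABCA1, and its mature sequence is given with the seed (bases 2 to 8) in capitals.
mmu-miR-33-5p, chr15:82198127-82198147 (GRCm38.p6, plus strand): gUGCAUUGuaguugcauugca
Mir33 had 0 counts in all 6 libraries, which allows up to 3 counts over the 6 together (counting error only). Libraries of this kind are made from longer RNA and are not suited to mature microRNAs, so the value does not measure miR-33.

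Insig1 (ENSMUSG00000045294, chr5:28071363-28078662, plus strand), whose protein retains SREBP2 in the endoplasmic reticulum and which is a sensitive SREBP target, did not pass the test. It was counted at 36.3, 22.8 and 22.6 CPM in the controls and 22.3, 19.2 and 27.9 CPM in the cKO. Control 1 was the highest of the 6, and Rnmt cKO 3 was above 2 of 3 controls. The log2 fold change was -0.24 with an SE of 0.27 (adjusted p = 0.540, edgeR exact test), and without control 1 it was 0.02.

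Hmgcs1 (ENSMUSG00000093930, chr13:119690379-119708260, plus strand) encodes the cytosolic HMG-CoA synthase, an early step of the mevalonate pathway. It was counted at 50.3, 40.4 and 46.3 CPM in the controls and 50.9, 44.5 and 53.7 CPM in the cKO. Of the 3 cKO libraries, 2 were above the highest control. The log2 fold change was 0.12 with an SE of 0.12 (adjusted p = 0.603, edgeR exact test). Hmgcs1 had one of the narrowest spreads of the 7, with a coefficient of variation of 10.9% in the controls and 9.43% in the cKO.

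Idi1 (ENSMUSG00000058258, chr13:8885501-8892451, plus strand) encodes the isomerase that interconverts the basic isoprenoid units. It was the most thinly covered gene, with 31, 51 and 37 reads in the controls and 25, 24 and 48 in the cKO, or 3.64, 5.09 and 4.09 CPM against 2.64, 2.02 and 4.30 CPM. In Rnmt cKO 1 and 2 it was below all controls and in Rnmt cKO 3 above 2 of them. The log2 fold change was -0.52 with an SE of 0.33 (adjusted p = 0.341, edgeR exact test). Without Rnmt cKO 3 it was -0.91 (adjusted p = 0.0168), the 1 of 17 other settings past the threshold.

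Fdft1 (ENSMUSG00000021273, chr14:63145150-63179578, minus strand) encodes squalene synthase, the step that commits isoprenoids to sterols. Its values of 20.1, 13.1 and 16.8 CPM in the controls and 19.2, 14.4 and 16.9 CPM in the cKO covered nearly the same range. The log2 fold change was 0.02 with an SE of 0.21 (adjusted p = 0.990, edgeR exact test) and its sign depended on the library left out. The gene overlaps Ctsb on the opposite strand, which had a mean of 991 reads, and the counts used here were those of the sense strand.

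Sqle (ENSMUSG00000022351, chr15:59315077-59331192, plus strand) encodes squalene epoxidase, a rate-limiting oxygen-dependent step after squalene. It had the most negative log2 fold change of the 7, -0.73 with an SE of 0.37, and the widest relative spread within the controls (a coefficient of variation of 38.4%, against 23.6% in the cKO), and it did not pass the test (p = 0.0123, adjusted p = 0.0735, edgeR exact test). Its values were 18.0, 8.18 and 12.3 CPM in the controls and 7.40, 6.07 and 9.68 CPM in the cKO. Control 2 was below Rnmt cKO 3, so that the groups overlapped through those libraries, and control 1 was 2.20-fold above control 2. Without control 2 the log2 fold change was -0.97 (adjusted p = 0.00631), and without Rnmt cKO 3 it was -0.94 (adjusted p = 0.00671). With the share of reads in no gene as a covariate in edgeR's quasi-likelihood test it was -0.68 (adjusted p = 0.0309). In the other 14 of 17 settings the adjusted p stayed above 0.05, up to 0.457.

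Lss (ENSMUSG00000033105, chr10:76531588-76557138, plus strand) encodes lanosterol synthase, which folds squalene epoxide into the first sterol. It was counted at 25.9, 22.8 and 23.1 CPM in the controls and at 23.8, 19.8 and 19.8 CPM in the cKO. Rnmt cKO 1 lay above 2 of the controls. The log2 fold change was -0.18 with an SE of 0.10 (adjusted p = 0.458, edgeR exact test), and it was below 0 in all 18 other settings.

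The 7 genes varied between libraries within a group as well as between groups. Summed over the 7, the level was 305, 233 and 259 CPM in the controls and 228, 197 and 249 CPM in the cKO. Srebf2 alone held 135 of a mean sum of 266 CPM in the controls and 103 of 225 CPM in the cKO. Control 1 was the highest control for 6 of the 7, all but Idi1, where this held for 35.6% of all tested genes. Rnmt cKO 2 was the lowest cKO library for 6 of the 7, all but Lss, against 29.9% of all tested genes. In the wider list of 21 synthesis genes, control 1 was the highest control for 20 and Rnmt cKO 2 the lowest cKO library for 16. That list includes the enzymes among the 7. Among its other 16 genes, control 1 was the highest control for 16 and Rnmt cKO 2 the lowest cKO library for 12. This pattern was noticed after the values were seen and rests on single libraries, so it was not tested. Averaged over the 7 as centred log2 CPM, the profile was 0.35, -0.05 and 0.09 in the controls and -0.10, -0.37 and 0.07 in the cKO.

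Of 9699 genes with a mean of at least 5 CPM, the 5 whose profile over the 6 libraries lay nearest to that average were Pet100, Krtcap2, Nop10, Mrpl58 and Cox7b. Their root mean square differences from it were 0.06 to 0.07 on the log2 scale, against a median of 0.26 over all candidates. None of these 5 was past the threshold, with log2 fold changes from -0.28 (Nop10) to -0.17 (Krtcap2) and adjusted p from 0.172 to 0.571 (edgeR exact test). Because the 5 were picked for their likeness to that average, these values follow largely from the choice and are no separate result.

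The share of reads in no gene split the libraries into a set below 40% (controls 1 and 2, Rnmt cKO 3) and a set above 46% (control 3, Rnmt cKO 1 and 2). Srebf2 had a log2 ratio of cKO to control of -0.21 within the lower set and -0.48 within the higher set. For Sqle the ratios were -0.43 and -0.86, and for Idi1 -0.02 and -0.81. Lss was -0.30 and -0.08, Insig1 was -0.08 and -0.13, Fdft1 was 0.03 and 0.0035, and Hmgcs1 was 0.24 and 0.04. Each set held a single library of one of the groups, so no test was run within it, and the part of this share in the differences was not tested beyond the covariate fit.

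**Figure D3:**
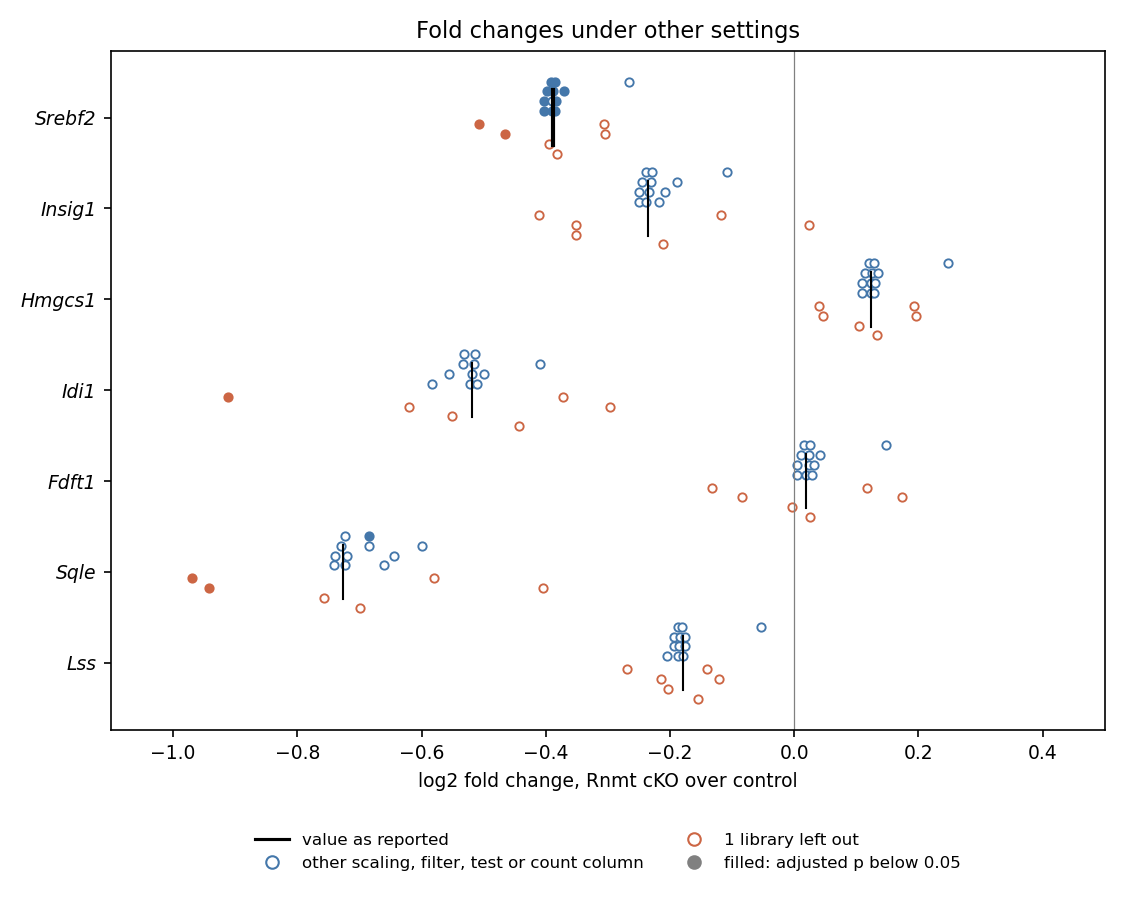
Log2 fold change of the 7 genes, Rnmt cKO over control, as reported (black lines, thicker where past the threshold) and under each other setting (blue) or with 1 library left out (orange), filled where the adjusted p was below 0.05. Srebf2 stayed between -0.51 and -0.27, whereas Fdft1 lay on both sides of 0, from -0.13 to 0.17.

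The rest of the pathway was read from lists of genes. Counts in each list stand beside the 6.84% of all tested genes called lower and the 8% called higher. Among 21 genes of cholesterol synthesis, from acetyl-CoA to cholesterol and including the 5 enzymes above, none was lower, 1 was higher and 20 did not pass, with a median log2 fold change of -0.12. Summed over the list, the level was 783, 670 and 694 CPM in the controls and 715, 659 and 791 CPM in the cKO, and the groups overlapped. Lbr alone held 321 of a mean sum of 716 CPM in the controls and 349 of 722 CPM in the cKO. The 1 gene called higher was Ebp, the sterol isomerase of the late pathway. It was counted at 28.0, 25.0 and 24.0 CPM in the controls and 32.1, 30.3 and 38.9 CPM in the cKO. All 3 cKO libraries were above the controls, as they were for 16.6% of all tested genes, and the log2 fold change was 0.40 with an SE of 0.13 (adjusted p = 0.0292, edgeR exact test). That call was held in 8 of 18 other settings, with adjusted p up to 0.163. Lbr, a lamin B receptor that also carries sterol reductase activity, was by far the most abundant per length at 95.5 RPKM and had a log2 fold change of 0.12 (adjusted p = 0.506). Msmo1, a methyl sterol oxidase, had a log2 fold change of -0.26 (adjusted p = 0.350).

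In the list of SREBP control genes, 11 of 12 were found, all 11 were tested, and Srebf2 was the 1 past the threshold. Srebf1, which encodes the sister factor SREBP1, had 109 ± 9.65 CPM in the controls and 123 ± 10.8 CPM in the cKO, a log2 fold change of 0.18 (adjusted p = 0.303). Mbtps1, the site-1 protease, had a log2 fold change of -0.03 (adjusted p = 0.910). Without Srebf2 and Insig1 the list had a median log2 fold change of 0.02.

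**Figure D4:**
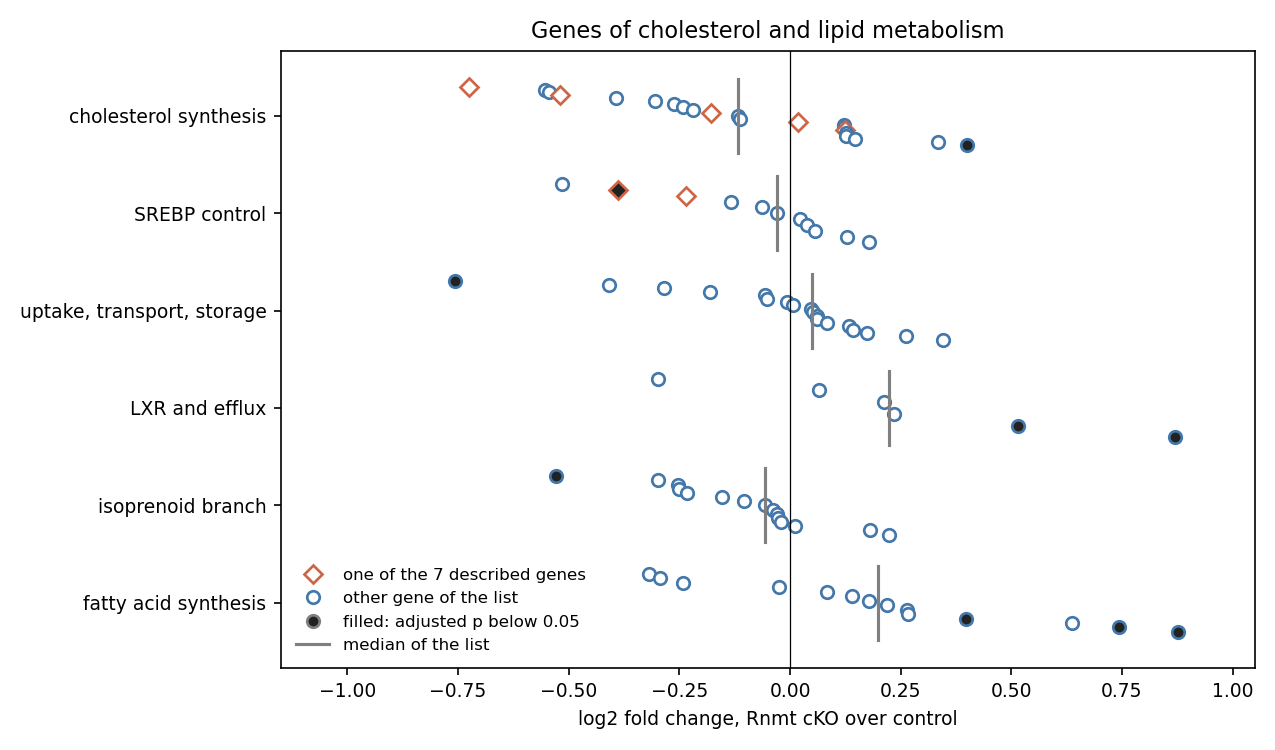
Log2 fold changes of the tested genes of 6 lipid lists, with diamonds for the 7 genes described, filled symbols for an adjusted p below 0.05 and a grey line for each list's median. In the efflux list 2 of 6 tested genes and in the fatty acid list 3 of 14 were higher, where 8% of all tested genes were called higher.

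Of 21 genes of cholesterol uptake, transport and storage, 18 were tested, 1 was lower and none was higher, with a median log2 fold change of 0.05. The 3 most abundant per length of those that did not pass were Gramd1a, a sterol carrier between membranes, at 231 RPKM, Npc2, which takes cholesterol out of lysosomes, at 108 RPKM, and Lipa, the lysosomal acid lipase, at 37.9 RPKM. Their log2 fold changes were 0.08, 0.14 and 0.06.

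Of the 6 tested genes of the opposite arm, LXR and cholesterol efflux, 2 were higher and none was lower. Their median log2 fold change was 0.22, with 5 above 0 and 1 below. Over all tested genes 8% were called higher and 6.84% lower. LXRs are nuclear receptors that sense oxysterols and switch on export. Abca1, the exporter that loads cholesterol onto apolipoproteins, was counted at 98.9, 88.1 and 103 CPM in the controls and 147, 187 and 195 CPM in the cKO, and every cKO library was above every control. Its log2 fold change was 0.87 with an SE of 0.14 (adjusted p = 1.21e-10, edgeR exact test). Abcg1, which exports cholesterol to high-density lipoprotein, rose from 174, 179 and 158 CPM to 226, 239 and 267 CPM, a log2 fold change of 0.52 with an SE of 0.09 (adjusted p = 1.56e-05, edgeR exact test). Both calls held in all 18 other settings. Nr1h2, which encodes LXRβ, was at 58.2 ± 3.62 and 68.5 ± 4.20 CPM, with a log2 fold change of 0.23 that did not pass (adjusted p = 0.108). Lpcat3, a phospholipid-remodelling LXR target, had one of 0.07 (adjusted p = 0.808).

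The isoprenoid branch uses the same early intermediates for prenylation, dolichol and ubiquinone. Of its 15 genes 1 was lower and none higher, where 6.84% of all tested genes were called lower, and the median log2 fold change was -0.06. Rabggtb, a subunit of the Rab prenyltransferase whose introns also host snoRNAs, fell from 46.8, 51.6 and 44.0 CPM to 35.7, 32.9 and 30.2 CPM with no overlap, a log2 fold change of -0.53 with an SE of 0.10 (adjusted p = 0.000157, edgeR exact test). That call held in all 18 other settings. The most abundant of the rest were Fnta, Coq2 and Chm, at -0.15, -0.30 and -0.23, and none of these 3 passed.

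Of 17 genes of fatty acid synthesis, a pathway driven mainly by SREBP1, 14 were tested, 3 were higher and none was lower, with a median log2 fold change of 0.20. The share called higher over all tested genes was 8%. Acacb, an acetyl-CoA carboxylase at the mitochondrial surface, had a log2 fold change of 0.88 (adjusted p = 0.00550) from a low level of 2.73 ± 0.244 CPM in the controls to 4.99 ± 0.421 CPM in the cKO. The stearoyl-CoA desaturase Scd2 rose from 108 ± 16.3 to 142 ± 10.5 CPM, 0.40 on the log2 scale (adjusted p = 0.00960), and Scd1 rose from 6.38 ± 1.09 to 10.7 ± 3.28 CPM, 0.74 on the log2 scale (adjusted p = 0.0347). The call held in 14 of 17 other settings for Acacb, 15 of 18 for Scd2 and 9 of 17 for Scd1. Elovl5, Acly and Fasn, the most abundant of the rest per length, were at 0.18, 0.14 and 0.27 and did not pass.

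Marker genes of other cells and states also moved between the groups. For comparison, 8% of all tested genes were called higher and 6.84% lower. Of 16 proliferation genes 14 were higher in the cKO, with Mki67 at 12.5 to 17.2 CPM in the controls and 108 to 128 CPM in the cKO, and their summed level was 282 to 313 against 590 to 648 CPM. Of those called, Aurkb, Cdk1, Ccnb2, Bub1 and Birc5 met the filter of 1 CPM in 3 samples only through the cKO libraries, where they were high. Of 12 tested activation genes 5 were higher (Nr4a1, Nr4a3, Egr1, Egr2 and Irf4) and 2 lower (Il2ra and Cd44), with summed levels of 522 to 549 against 567 to 649 CPM. Of 14 naïve T cell genes 4 were higher and 2 lower, summing to 7267 to 7621 against 7855 to 8750 CPM. The B cell list was higher for 6 of 10, at 52.7 to 62.1 against 70.3 to 115 CPM in sum, and the myeloid list for 3 of 6 tested, at 8.68 to 10.8 against 19.8 to 42.9 CPM, both highest in Rnmt cKO 2. Of the myeloid genes called higher, S100a8 and S100a9 passed the filter only through the cKO libraries, where they were high. Both CD8 genes were lower, at 21.7 to 23.3 against 13.5 to 17.3 CPM in sum. Of 6 erythroid genes 2 were tested, Hba-a1 and Hbb-bs, and both were lower. These 2 passed the filter only through the controls, where they were high, so nothing is read from that count. Summed over all 6 erythroid genes, the level was 4.86 to 7.52 against 1.16 to 1.35 CPM. Of 8 stromal genes 1 was tested and did not pass, with a list sum of 284 to 320 against 309 to 332 CPM that was nearly all Pecam1, a gene lymphocytes also express. The least stable of these marker calls were Cd8a, past the threshold in 5 of 17 other settings, Cd79b in 6 of 18 and Ebf1 in 8 of 17. No list had a gene at 0 counts in all libraries. These shifts ran with genotype alongside the changes in Srebf2, Abca1, Abcg1, Rabggtb, Ebp and the fatty acid genes, and their part in those changes was not tested.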

How the data were processed

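The authors aligned paired-end reads with STAR 2.5.2b to mm10 and deposited per-gene read counts for unstranded, forward and reverse counting, together with a table of scaled signal (normalised gene counts) that also holds fold changes and p-values of their own comparison, which were not used. The reverse-strand counts were used, because after scaling they matched the deposited signal to within 0.1% for 100% of 11221 genes in each library. Genes above 1 CPM in at least 3 samples were compared by edgeR 4.0.16 (exact test, TMM, Benjamini-Hochberg, adjusted p below 0.05) in R 4.3.3, with all 6 libraries. The SE of a log2 fold change is from the spread of log2 CPM (prior count 2) within groups. RPKM used merged exon lengths of GENCODE vM21. Promoter and microRNA sequences are RefSeq's, and positions are 1-based. The test was checked on simulated counts. Replicates differed beyond counting error (chi-square over its degrees of freedom, 3.86 to 25.3), so none was merged. The text names the 7 genes, the genes of 6 lipid lists past the threshold with up to 3 of the most abundant others per list, and the 5 nearest profiles; 4 genes that meet this rule are not reported here. The 7 genes and the lists were chosen with earlier results of these data known. Alternatives were other scalings, filters, tests and count columns, a replicate block, the share of reads in no gene as a covariate, and leaving out each library.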

Additional observations from a re-analysis of the deposited data

How the results depend on the processing

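The 7 genes held 1 lower gene as reported. There were 0 when libraries were scaled by total count alone, 0 with a replicate block (Srebf2 -0.39, adjusted p = 0.0682, edgeR quasi-likelihood test), 2 with the share of reads in no gene as covariate (Srebf2 and Sqle), and 0 to 3 with 1 library left out. The sample titles do not say whether the replicate numbers pair the samples. Same-numbered libraries correlated at -0.21, -0.02 and -0.35 in their deviations from group means. These values cannot settle pairing, because deviations within a group of 3 libraries sum to 0 and make the correlations depend on one another. Over all genes the quasi-likelihood test gave 276 lower and 431 higher with the block and 636 and 793 without it. Among the 21 synthesis genes the lower count rose from 0 to 3 with the covariate and ranged from 0 to 4 with 1 library left out. The higher count, 1 as reported, was 0 without a filter, with the edgeR quasi-likelihood test, DESeq2, limma-voom, the replicate block and unstranded counts, and 0 to 1 with 1 library left out. Fdft1 changed sign without control 2, Rnmt cKO 1 or Rnmt cKO 3 (log2 fold change -0.13 to 0.17 with 1 library left out), and Insig1 without control 1 (-0.41 to 0.024). The causes were not tested. Against 844 lower and 987 higher genes as reported, scaling by total count gave 535 and 1938 and moved the median to 0.14. The covariate fit gave 1466 lower and 1696 higher, the fit without Rnmt cKO 3 gave 1285 and 1221, and those without controls 1 and 2 and Rnmt cKO 2 gave 559 and 747, 560 and 656, and 547 and 643. Depth limits Idi1, with 24 to 51 reads a library.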
